A study of Mus musculus with 9 samples.

Results

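The genes described here act in mitosis and in building the spindle. They were chosen by name from a list of 57 symbols, grouped by role, and each was read from the probe set (the group of array probes that reports a transcript) with a single gene symbol and the highest mean level. Of the 57 listed genes, 51 were in the table of 14440 genes, and Ccnb1, Aurka, Kif4, Kif22, Anln and Tacc3 were not analysed here. All 51 passed the filter on dim genes, which asked for a level at or above the array's floor on at least 4 arrays. Of these 51, 9 lay below the floor on every muscle array and passed through the tumours, so for them a difference was built into passing. Their calls and p-values, printed below, are therefore no independent support for a difference. Members below the floor on only some muscle arrays, such as Ccnb2 on 3 of 4, also needed tumour arrays to pass. The filter thus bears on their calls too.

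Total RNA was measured on Affymetrix arrays, 1 array per sample, in 5 tumours of mice labelled MYF-5 CRE/SSM2, described as SYT-SSX tumours, and in 4 samples of wild type skeletal muscle. SYT-SSX is the fusion oncoprotein that defines synovial sarcoma, and a Cre named for Myf5 is one driven from a gene of the muscle lineage. Tumour 1 came from the mouse named CC23, tumour 2 carries the name CC17-B, tumour 3 CC17-A, tumour 4 SSM5 and tumour 5 SSM4, and muscles 1 to 4 came from hind limb, intercostal muscle, forelimb and hind limb again. Tumours 2 and 3 share a mouse name, and the labels do not otherwise say whether samples came from separate animals, so p-values measure the spread between these samples. Genotype and tissue differ together between the groups and cannot be told apart, and ages are not given in the sources used here. In bulk tissue, fewer cells of a type and less RNA per cell cannot be told apart either.

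A dividing cell enters mitosis when cyclins activate the kinase Cdk1, and the Aurora and Polo kinases then drive spindle assembly and the attachment of chromosomes at kinetochores. The spindle checkpoint holds the anaphase-promoting complex in check until every kinetochore is attached, after which separase cuts the cohesin that joins sister chromatids and the cell divides. Most of these transcripts are made late in the cell cycle and are scarce in tissue that no longer divides, such as mature muscle fibres.

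Levels are scaled array intensities, with arrays set to a common 2% trimmed mean. The floor of an array was its 40th percentile, which lay between 96.5 and 137. A log2 fold change is the tumour mean minus the muscle mean of log2(intensity + 16), tested 2-sided with limma and Benjamini-Hochberg adjustment over all 10650 genes tested, and calls were made where that p was under 0.05. The number of arrays limits the precision. Where every muscle array lay below the floor, the change is given only as a bound against the floor, written "at least". Genes below the floor on only some muscle arrays keep their fitted change, whose size rests partly on values below it. Arrays that stand apart bear on what follows. Muscle 3 carried markers of marrow myeloid cells: their summed level was 59784 there, against 1238 to 5125 in the other muscles and 523 to 1022 in the tumours, with 9 of 9 markers at or above its floor, among them S100a8, S100a9 and Camp. The ratio of 3-prime to 5-prime signal of Actb, a measure of RNA quality, was 12.7 in tumour 1 and 4.54 in tumour 4, and 1.62 to 2.90 on all other arrays. Skeletal muscle markers differed between tumours, with a summed level of 115061, 41094, 7147, 456 and 123346 in tumours 1 to 5, against 438983 to 581744 in muscle, and in tumour 4 they reached the floor in 0 of 10 cases. Muscle 2, the intercostal sample, had a cartilage marker sum of 17924, against 872 to 3335 in the other muscles and 4386 to 10359 in the tumours. Epithelial markers summed to 15963 in tumour 3 and to 2919 to 3921 in the other tumours, against 396 to 1184 in the muscles. Of the 6 tested, 5 were called higher, where 30.1% of all genes tested were. Of the 6, 2 lay below the floor in every muscle and passed the filter through the tumours. The part of cartilage and epithelial markers in the members' values was not tested. No marker of any list was at 0.

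Mitotic genes were higher in the tumours across nearly the whole list. Of the 51 members, 47 (92.2%) were called higher, 1 was called lower, and 3 were not called. Over all genes tested, 48% were called, 30.1% higher and 17.9% lower. The member called lower was Pttg1, which encodes securin, and those not called were the phosphatase Cdc25c, the condensin subunit Smc4 and the transcription factor Mybl2. By fitted change, a rise of at least 2-fold was called for 46 members, against 21.9% of all genes. The 46 include Cenph, whose bound against the floor was only 1.80-fold. For 44 members every tumour lay above every muscle, where 25.2% of all genes did so, and for 1 member every tumour lay below every muscle, as for 15.1% of all genes. The 9 members below the floor on every muscle array are among both the 47 and the 44. The median log2 fold change of the members was 2.97, or 2.41 when the 9 genes that muscle arrays held only below the floor were set to their bounds, beside 0.23 for all genes tested. The median of all genes moved from 0.04 to 0.45 with the scaling. Relative to it the member median ran from 2.67 to 2.75. Centring moves all genes of an array by the same amount, so this difference was fixed under it. Quantile and cyclic loess normalization gave 2.75 and 2.67. Over all genes, 62.6% of calls were upward. Centring each array on its median made this 52.1%, with 44 members higher, and centring on genes of the ribosome and proteasome made it 73.1%, with 48 members higher. With muscle 3 left out, 45 members were higher with a median of 3.14, without tumour 1 the count was 46, and with the Actb ratio as a covariate, an alternative chosen after seeing the data, it was 46.

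**Figure D1:**
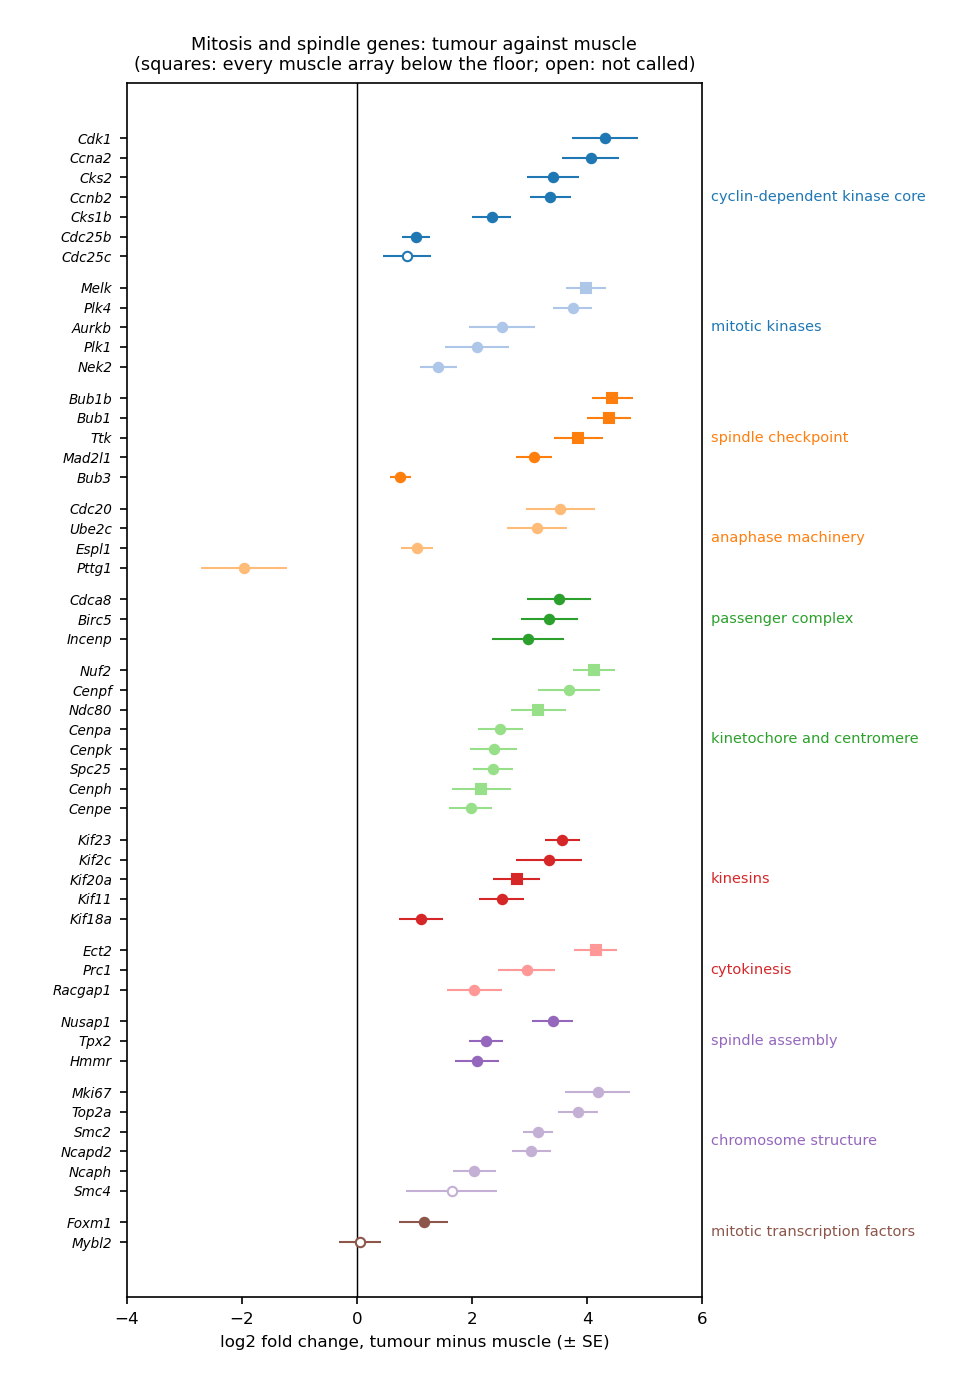
Log2 fold change of each member, tumour minus muscle, with its standard error, grouped by role and ordered by size within a role (5 tumours, 4 muscles). Filled symbols are called genes, open symbols are the 3 not called, and squares are the 9 genes below the floor on every muscle array, whose plotted values are fitted and are not bounds; Pttg1 alone lies well below 0.

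Promoters of many mitotic genes carry a cell cycle homology region (CHR), the element that the DREAM and MuvB complexes bind, and CCAAT boxes, which the factor NF-Y binds. RefSeq promoter sequences (GRCm38.p6, 250 bases before to 50 after the start, the first listed per gene) were held for 43 of the 51 members. The CHR letters TTTGAA occurred on either strand in 26 of these 43 promoters (60.5%), against 11.7% of the 8571 tested genes with a promoter and 18.1% of all 27025 promoters. Within 50 bases of the start the shares were 53.5% of members, against 2.84% of tested genes and 4.92% of all promoters. CCAAT was found in 72.1% of member promoters, against 38.6% and 37.9%, and the E2F letters TTTCCCGC or TTTGGCGC in 4.65%, against 2.89% and 1.63%. No motif searched holds another within it. A CHR near the start together with a CCAAT box was present in 22 member promoters (51.2%), against 1.46% of tested genes and 2.11% of all promoters. Such matches are letters in a window, not measured sites. Of the 10 members with neither letters, 8 were called higher. The median fitted log2 fold change of the called higher members was 3.15 with a CHR (n = 26) and 3.08 without (n = 15). Genes below the floor in every muscle entered both medians at fitted values, not bounds. The members with a match came from every role but the transcription factors, whose only promoter held, that of Mybl2, had none.

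The sequences below run from 150 bases before the start to 30 after it, 5′ to 3′ on the gene's strand, with CHR and CCAAT letters of either strand in capitals (TTCAAA and ATTGG are the reverse strand forms). Cdk1, Ccnb2, Cdc20 and Kif23 are shown as strongly raised members, with Cdk1 and Ccnb2 from the same role. Bub3 is shown as the called member with the smallest rise and Pttg1 as the one that fell. They lie at chr10:69352883-69353062 (Cdk1), chr9:70421525-70421704 (Ccnb2), chr4:118437314-118437493 (Cdc20), chr9:61946770-61946949 (Kif23) and chr11:43425952-43426131 (Pttg1), all on the minus strand, and at chr7:131560220-131560399 on the plus strand (Bub3, whose table lists a further start downstream).
Cdk1: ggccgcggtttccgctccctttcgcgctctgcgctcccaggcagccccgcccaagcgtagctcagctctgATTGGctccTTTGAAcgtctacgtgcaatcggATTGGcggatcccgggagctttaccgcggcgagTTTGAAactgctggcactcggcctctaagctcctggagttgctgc
Ccnb2: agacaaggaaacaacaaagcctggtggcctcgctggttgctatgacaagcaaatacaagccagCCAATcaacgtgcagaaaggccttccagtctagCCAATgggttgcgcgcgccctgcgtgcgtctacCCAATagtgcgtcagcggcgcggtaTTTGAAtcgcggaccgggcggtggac
Cdc20: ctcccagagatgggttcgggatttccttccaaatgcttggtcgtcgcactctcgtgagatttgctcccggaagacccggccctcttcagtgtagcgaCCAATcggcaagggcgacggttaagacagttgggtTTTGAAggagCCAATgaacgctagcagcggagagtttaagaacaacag
Kif23: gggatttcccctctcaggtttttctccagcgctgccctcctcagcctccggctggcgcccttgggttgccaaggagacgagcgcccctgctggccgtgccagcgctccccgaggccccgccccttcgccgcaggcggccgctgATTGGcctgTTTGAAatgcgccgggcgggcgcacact
Bub3: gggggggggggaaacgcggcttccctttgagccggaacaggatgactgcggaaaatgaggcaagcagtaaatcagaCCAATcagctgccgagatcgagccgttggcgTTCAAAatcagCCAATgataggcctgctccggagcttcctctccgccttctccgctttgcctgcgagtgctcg
Pttg1: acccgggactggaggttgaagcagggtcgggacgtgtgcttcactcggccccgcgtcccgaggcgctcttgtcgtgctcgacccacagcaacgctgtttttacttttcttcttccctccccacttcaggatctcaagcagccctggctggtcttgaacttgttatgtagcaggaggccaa
Counting from +1 at the start, the CHR letters began at −15 and −71 in Cdk1, at 5 in Ccnb2, at −18 in Cdc20, at 3 in Kif23 and at −43 in Bub3. A CCAAT box lay upstream of the CHR nearest the start in each of these promoters, beginning at −48, −21, −53, −7 and −74 in that order of genes. The Pttg1 window held no match to any of the letters searched, and neither did that of Mybl2. The log2 fold changes of Cdk1, Kif23 and Bub3, whose windows all held both letters, were 4.31, 3.57 and 0.76.

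**Figure D2:**
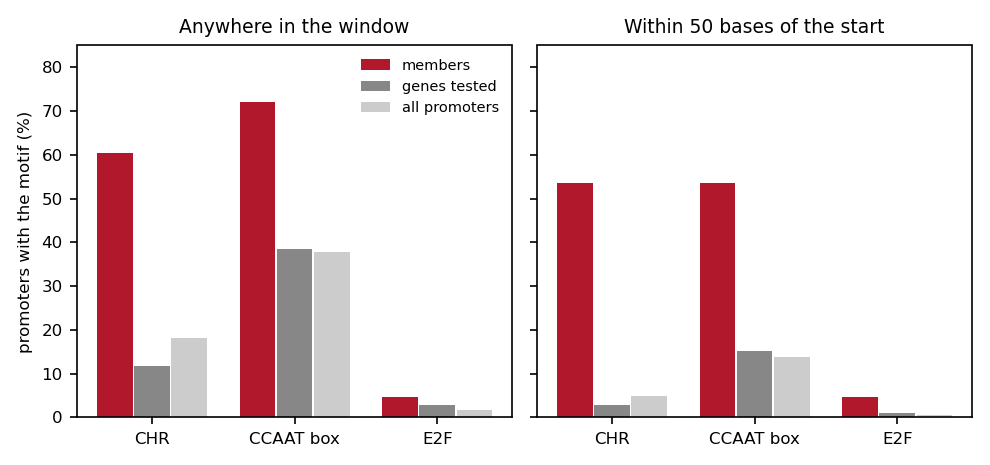
Share of promoters (%) holding each motif, for the 43 members, the 8571 tested genes and all 27025 promoters, anywhere in the 300-base window (left) and within 50 bases of the start (right). The CHR is in 60.5% of member promoters, against 11.7% of tested genes, and the E2F letters are rare in every set.

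Among the 7 core genes of the mitotic cyclin-dependent kinase, 6 were higher, with a median log2 fold change of 3.36. Cdk1, the kinase that starts mitosis, read 1163, 2844, 2886, 1385 and 1269.9 in tumours 1 to 5, against 7.52, 157, 175 and 66.8 in muscles 1 to 4. All 5 tumours lay above all 4 muscles, with muscle 1 far below the other muscles. On the log2 scale the change was 4.31 (SE 0.57, adjusted p = 0.000137), or 3.66 without muscle 1, and over its alternatives the adjusted p ran from 3.71e-05 to 0.000865. Its cyclin partners moved with it. Ccna2, cyclin A2, stood at 2485, 2285, 2033, 1639 and 1279 in the tumours, against 19.1, 179.6, 231 and 84.1 in the muscles. Ccnb2, a B-type cyclin, stood at 844, 1789, 1667, 695 and 694, against 132, 52.3, 92.5 and 85.1. Neither cyclin overlapped between the groups, and the log2 fold changes were 4.06 and 3.36 (adjusted p = 7.69e-05 and 3.48e-05).

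Cks1b and Cks2 encode small subunits that bind Cdk1 and its relatives. Cks1b was at 11954, 11291, 8636, 4792 and 5168 in tumours, against 1215, 1276, 2704 and 1289 in muscles, with muscle 3 above the other muscles. Cks2 was at 4653, 4000.0, 3067, 2213 and 1419, against 206, 229, 655 and 126, again highest among muscles in muscle 3. As differences, Cks2 rose by 3.41 and Cks1b by 2.34 on the log2 scale (adjusted p = 0.000137 and 0.000259), and the difference between these paralogues was not tested. The Cdc25 phosphatases, which remove the inhibitory phosphates from Cdk1, changed least in this group. Cdc25b read 448, 302, 598, 533 and 372 in tumours, against 219, 240.4, 199 and 171 in muscles, without overlap (log2 fold change 1.03, adjusted p = 0.00484). Cdc25c read 393, 360.0, 333, 174 and 111, against 147, 191, 64 and 146, and tumours 4 and 5 lay within the muscle range. Its log2 fold change of 0.87 was not called (SE 0.42, adjusted p = 0.105). It was called without tumour 5, at 1.14 (adjusted p = 0.0292), and its adjusted p ran from 0.000268 to 0.364 over the alternatives. A dimmer Cdc25c probe set read 114, 209, 209, 179 and 121 in tumours, against 6.37, 20.3, 4.53 and 6.54 in muscles, and was called higher.

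All 5 mitotic kinases tested were higher, with a median of 2.53, or 2.08 with Melk set to its bound. Melk, a kinase of proliferating and progenitor cells, read 591, 545, 469, 266 and 378 in tumours, against 13.6, 5.82, 26 and 8.10 in muscles. Every muscle array was below the floor, and Melk was at least 3.79-fold higher (adjusted p = 1.16e-05, though it passed the filter through the tumours alone). Plk1, the Polo kinase of mitotic entry and spindle poles, read 218, 381, 708, 226 and 225, against 39.3, 121, 156 and 12.2, with tumour 3 the highest and tumours 1, 4 and 5 close together. This gave a difference in log2 level of 2.08 (SE 0.55, adjusted p = 0.00937). Aurkb, the kinase of the chromosomal passenger complex, read 286, 402, 730.0, 259.7 and 216, against 11.4, 13.8, 143 and 101, without overlap, and muscles 1 and 2 lay far below muscles 3 and 4 (log2 fold change 2.53, adjusted p = 0.00404). Its relative Aurka was not analysed here. Plk4, which governs centriole duplication, rose by 3.75 on the log2 scale (adjusted p = 1.47e-05).

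Nek2, a kinase that separates centrosomes, had the smallest change of the kinases. It read 399, 353, 475, 208 and 184 in tumours, against 112, 115, 120.0 and 74.3 in muscles, and the groups did not overlap. The log2 fold change was 1.42 (adjusted p = 0.00402). Without muscle 1 or muscle 2 it was 2.38 and 2.35, because another Nek2 probe set then had the highest mean. That probe set read 240, 544, 844, 373 and 291 in tumours, against 30.1, 27.1, 102 and 95.2 in muscles, and a dimmer tested one read 265, 76.1, 167, 23.7 and 61.8, against 155, 113, 114 and 105, and was not called.

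The 5 genes of the spindle checkpoint were all higher. Bub1b encodes BubR1, which helps to inhibit the anaphase-promoting complex, and read 571, 826, 1066, 489 and 349 in tumours, against 24.2, 7.51, 7.67 and 15.3 in muscles. All 4 muscles lay below the floor, and the tumours were at least 5.30-fold higher (adjusted p = 9.84e-06). Bub1, its kinase relative at kinetochores, was at least 5.34-fold higher, and Ttk, which encodes the checkpoint kinase Mps1, at least 3.72-fold, with every muscle array of both below the floor. Mad2l1, encoding the Mad2 protein that captures Cdc20, rose by 3.08 on the log2 scale (SE 0.31, adjusted p = 2.78e-05). The remaining gene, Bub3, encodes the adaptor that brings Bub1 and BubR1 to kinetochores. It read 3429, 4054, 4273, 3381 and 3147 in tumours, against 2025, 1695, 2511 and 2450.2 in muscles. The groups did not overlap, but the muscle level was well above the floor and the rise was the smallest among called members, 0.76 on the log2 scale (SE 0.19, adjusted p = 0.00653). The call was lost on unscaled values (0.62, adjusted p = 0.0576), after centring each array on its median (0.56, adjusted p = 0.0702) and after averaging its probe sets (0.31, adjusted p = 0.361). A second tested Bub3 probe set read 490, 469, 772, 579 and 645 in tumours, against 806, 520, 523 and 634 in muscles, and another 265, 219, 134, 112 and 48.6, against 58.7, 71.7, 94.6 and 53.9. Neither was called. Over its alternatives the adjusted p of Bub3 ran from 0.00114 to 0.819.

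**Figure D3:**
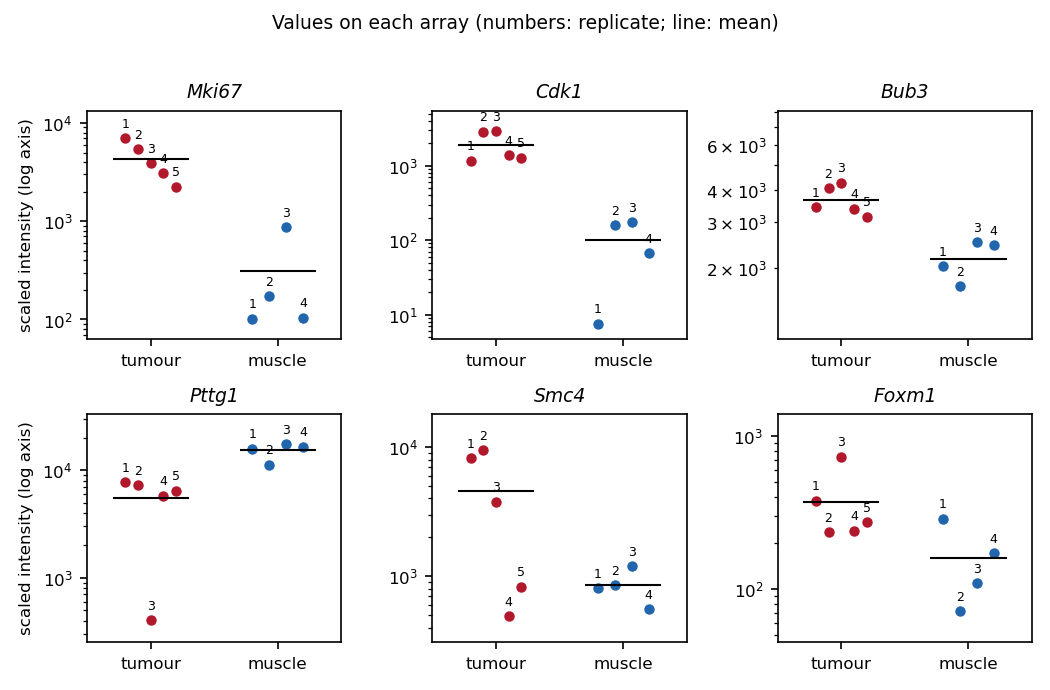
Scaled intensity on each array (log axis) for 6 members, tumours left of muscles, with replicate numbers and group means. Mki67, Cdk1 and Bub3 do not overlap between groups, Pttg1 is lower in every tumour with tumour 3 at 400.2, Smc4 is near the muscle range in tumours 4 and 5, and Foxm1 overlaps.

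Of the 4 genes of the anaphase machinery, 3 were higher and 1 lower. Cdc20, the activator of the anaphase-promoting complex, read 5324, 6069, 4348, 1656 and 1187 in tumours, against 145, 281, 776 and 119 in muscles, with muscle 3 the highest muscle and no overlap. On the log2 scale the change was 3.53 (SE 0.60, adjusted p = 0.000642). Ube2c, the ubiquitin-conjugating enzyme that works with that complex, rose by 3.13, and Espl1, which encodes separase, by 1.05 on the log2 scale (adjusted p = 0.000537 and 0.00961).

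Pttg1 encodes securin, the inhibitor that holds separase inactive until anaphase, and ran against the rest of the list. It read 7745, 7234, 400.2, 5779.6 and 6423 in tumours, against 15862, 11234, 17524 and 16474 in muscles. Every tumour lay below every muscle, and tumour 3 lay far below the other tumours. This gave a difference in log2 level of −1.96 (SE 0.75, adjusted p = 0.0486). Leaving out tumour 3 gave −1.16 (adjusted p = 0.00184), so the size rested on that array while the call remained. The call was lost in 15 of 29 alternatives: among single arrays left out, without tumour 4 (−2.11), muscle 1 (−1.94), muscle 2 (−2.10), muscle 3 (−1.89) or muscle 4 (−1.92), with adjusted p from 0.0526 to 0.101. Over all alternatives the adjusted p ran from 0.00184 to 0.452, and the value was negative in each. A second Pttg1 probe set read 893, 1244, 127, 1127 and 1816 in tumours, against 4381, 4226, 4818 and 4404 in muscles, again without overlap and with tumour 3 the lowest. Tested among all probe sets, that one was called lower (log2 fold change −2.47, adjusted p = 0.00633), while the representative one was not called in that test (adjusted p = 0.0526), nor was another, dim one. Tumour 3 was also the tumour with the highest epithelial marker sum.

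The chromosomal passenger complex guides Aurora B to centromeres and the midzone, and all 3 of its other subunits listed were higher. Cdca8, which encodes borealin, read 3164, 2179, 2531, 903 and 599 in tumours, against 59.7, 104, 352 and 97.3 in muscles, and muscle 3 stood above the other muscles. Its log2 fold change was 3.51 (SE 0.56, adjusted p = 0.000410). Birc5, which encodes survivin, read 1097, 1041, 1561, 1056 and 829, against 74.9, 55.1, 389 and 38.0, and rose by 3.35 on the log2 scale (adjusted p = 0.000280), or by 3.98 without muscle 3. Incenp, the scaffold of the complex, read 5546, 3589.6, 2346, 1044 and 620.5, against 229, 139.7, 625 and 157. Tumour 5 and muscle 3 lay at nearly the same level, so the groups overlapped, and the log2 fold change was 2.97 (SE 0.62, adjusted p = 0.00245). A second Incenp probe set read 363, 539, 857, 358 and 282 in tumours, against 25.7, 197, 77.4 and 81.0 in muscles, and was called, while another, at 798, 111, 253, 58.5 and 75.3 in tumours, against 71.8, 62.2, 112 and 16.5, was not.

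At kinetochores and centromeres all 8 genes were called higher, with no overlap between groups for any of them. Of the 8, 3 (Nuf2, Ndc80 and Cenph) lay below the floor in all muscles and passed the filter through the tumours. The median was 2.43, or 2.21 with these 3 set to their bounds. Nuf2 and Ndc80 encode subunits of the complex that grips microtubules. Nuf2 read 319, 665, 769.5, 397 and 359 in tumours, against 7.83, 12.9, 24.1 and 6.39 in muscles, all below the floor, and was at least 4.11-fold higher (adjusted p = 1.16e-05). Ndc80 was at least 2.57-fold higher (adjusted p = 0.000307). Spc25, of the same complex, rose by 2.37 on the log2 scale (adjusted p = 0.000253). Its probe set read 1749, 1509, 1231, 727 and 518 in tumours, against 205, 146, 242 and 175 in muscles, while a second one read 182, 105, 150, 218 and 117, against 120, 220, 132 and 177, and was not called. Cenpa, the histone variant that marks centromeres, rose by 2.49 and Cenpk, of the constitutive centromere complex, by 2.38 on the log2 scale (adjusted p = 0.000415 and 0.000688), and Cenph, of that complex too, was at least 1.80-fold higher.

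Cenpf and Cenpe encode large proteins that join the outer kinetochore during mitosis. Cenpf read 1160.4, 1052, 1489.6, 812 and 661 in tumours, against 69.0, 34.3, 271 and 14.9 in muscles, highest among muscles in muscle 3. On the log2 scale the change was 3.69 (adjusted p = 0.000259), or 4.31 without muscle 3. A second Cenpf probe set read 150, 157, 154, 106 and 125 in tumours, against 113, 12.0, 90.2 and 105 in muscles, and was not called. Cenpe, a kinesin motor, had the smallest change of those at or above the floor on some muscle array. It read 641, 719, 700.5, 225 and 317, against 94.6, 78.8, 134 and 134, with tumours 4 and 5 the lowest tumours (log2 fold change 1.98, adjusted p = 0.00118).

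Kinesins are motors that walk along or take apart microtubules, and all 5 tested were higher. Kif23, the motor of the central spindle, read 1763, 1014, 1361, 849 and 854 in tumours, against 119, 83.0, 89.2 and 43.6 in muscles. The groups lay far apart, and the log2 difference was 3.57 (SE 0.30, adjusted p = 1.15e-05). Kif11, which pushes spindle poles apart, rose by 2.52 on the log2 scale, and Kif20a, of cytokinesis, was at least 3.67-fold higher (adjusted p = 0.000371 and 0.000251). Kif18a, which shortens kinetochore microtubules, changed least. It read 135, 545, 431, 252 and 182, against 99.1, 124, 103 and 149.9, and tumour 1 lay within the muscle range. Its log2 change of 1.11 (SE 0.39, adjusted p = 0.0345) kept its sign but lost its call in 13 of 26 alternatives. Among these were the arrays left out singly: tumour 2 (0.87), tumour 3 (0.96), tumour 4 (1.14), muscle 1 (1.04), muscle 2 (1.14) and muscle 3 (1.06). Its adjusted p ran from 0.00954 to 0.148.

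Kif2c, a microtubule depolymerase at centromeres, had probe sets that disagreed. Its probe set read 1622, 1178, 1287, 384 and 346 in tumours, against 12.4, 117, 90.0 and 89.6 in muscles, with a log2 difference of 3.35 (adjusted p = 0.000658). A second, at 182, 298, 442, 143 and 154 in tumours, against 80.9, 129, 22.6 and 37.4 in muscles, was also called higher. The others were not called: they read 239, 140, 134, 109 and 110, against 245, 47.4, 257 and 259, and 151, 108, 177, 60.2 and 117, against 268, 167, 122 and 312. Over the whole list, 33 members had several probe sets, and of 88 member probe sets tested 72 were called higher, 1 lower and 15 not at all, where 25.7% of all 17433 probe sets tested were called higher. Of the 37 that did not represent their gene, 25 were called higher.

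All 3 cytokinesis genes were higher, without overlap. Ect2, which activates the small GTPase that contracts the cleavage furrow, read 1385, 2225, 1869, 971 and 678 in tumours, against 45.7, 112, 47.7 and 44.8 in muscles. All muscles lay below the floor, muscle 2 only just, and Ect2 was at least 11.2-fold higher (adjusted p = 1.37e-05). Racgap1, the partner of Kif23 that recruits Ect2 to the midzone, read 195, 626, 1094, 414 and 292, against 70, 52.4, 115 and 179.6, with tumour 1 close above muscle 4. This gave a difference in log2 level of 2.04 (SE 0.48, adjusted p = 0.00481). Prc1, which bundles the microtubules of the midzone, rose by 2.96 on the log2 scale (adjusted p = 0.000597), or by 2.35 without muscle 2.

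The 3 spindle assembly genes were higher as well. Nusap1, a microtubule-binding protein of the spindle, read 1154, 1937, 1863, 1136 and 744 in tumours, against 124, 54.0, 192 and 96.4 in muscles, and rose by 3.41 (SE 0.36, adjusted p = 3.5e-05). Tpx2, the activator of Aurora A on spindles, rose by 2.25 on the log2 scale (adjusted p = 0.000125). Hmmr, a spindle protein also known as a hyaluronan receptor, read 899, 1318, 1156, 713 and 339, against 164, 272, 173 and 126, without overlap, though tumour 5 lay near muscle 2. Its log2 fold change was 2.09 (adjusted p = 0.000904). Other Hmmr probe sets read 249, 304, 427, 305 and 258 in tumours, against 121, 57.0, 115 and 108 in muscles, and 206, 545, 605, 366 and 264, against 61.1, 68.8, 11.8 and 11.4, and both were called higher. The dimmest, at 12.8, 201, 164, 131 and 117, against 164, 158, 90.3 and 111, was not called.

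Among the 6 genes of chromosome structure, 5 were higher, with a median of 3.09. Mki67, the proliferation marker Ki-67 that coats mitotic chromosomes, read 7037, 5441, 3873, 3082 and 2254 in tumours, against 101, 172, 873 and 104 in muscles. Muscle 3 stood well above the other muscles, yet below every tumour. On the log2 scale the change was 4.19 (SE 0.56, adjusted p = 0.000148), or 4.86 without muscle 3. Top2a, the topoisomerase that untangles sister chromatids, read 3085, 4427, 4136, 1837 and 1846, against 202, 185, 290.1 and 104, without overlap, and rose by 3.84 on the log2 scale (SE 0.35, adjusted p = 1.4e-05). Ncapd2 and Ncaph, subunits of condensin I, rose by 3.03 and 2.04 (adjusted p = 4.45e-05 and 0.000957). Ncapd2 read 1816, 1560.4, 2178, 899.7 and 650.4 in tumours, against 141, 123, 172 and 144 in muscles, while its second probe set, at 490, 143, 187, 178 and 91.5, against 148, 21.5, 208 and 99.0, was not called.

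Smc2 and Smc4 encode the paired ATPases at the heart of condensin. Smc2 rose by 3.14 on the log2 scale (SE 0.26, adjusted p = 9.91e-06). Smc4 read 8155, 9469, 3765, 493 and 834 in tumours, against 806, 852, 1203 and 557 in muscles. Tumours 1 to 3 lay above every muscle, tumour 4 below every muscle and tumour 5 within their range, so that the log2 fold change of 1.65 was not called (SE 0.80, adjusted p = 0.109). It was called without tumour 4 (2.24, adjusted p = 0.0161), without tumour 5 (2.06, adjusted p = 0.0477) and without both, at 2.98, the last chosen after seeing the data. Over its alternatives the adjusted p ran from 0.000118 to 0.407. A second Smc4 probe set did not split the tumours in this way. It read 1536, 3668, 2800, 2630 and 2135 in tumours, against 624, 689, 601 and 399 in muscles, at 2.08 on the log2 scale, and was called. Another, at 316, 591, 271, 286 and 357 in tumours, against 136, 262, 126 and 113, was called as well.

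The 2 transcription factors listed for mitotic genes had the lowest median of the roles, 0.61. Foxm1, the forkhead factor of late cell cycle genes, read 378, 235, 734, 241 and 274 in tumours, against 288, 71.4, 109 and 171 in muscles. Muscle 1 lay above tumours 2, 4 and 5, and tumour 3 stood above the other tumours. This gave a difference in log2 level of 1.16 (SE 0.42, adjusted p = 0.0413). The sign held in all 26 alternatives, but the call was lost in 14, among them without tumour 1 (1.12), tumour 3 (0.89), muscle 2 (0.88), muscle 3 (1.05) or muscle 4 (1.25), and the adjusted p ran from 0.0137 to 0.372. A second Foxm1 probe set read 362, 264, 315, 183 and 255 in tumours, against 9.61, 112, 122 and 23.9 in muscles, without overlap, and was called at 2.13.

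Mybl2 encodes B-Myb, which joins the MuvB complex at late cell cycle promoters. It read 197, 130.3, 289, 81.9 and 103 in tumours, against 118, 137, 139 and 169 in muscles, and tumours lay on both sides of the muscle range. The log2 fold change of 0.05 (SE 0.36) was not called (adjusted p = 0.914), and its sign turned in 9 of 26 alternatives, among them without tumour 1 (−0.05), tumour 3 (−0.17) or muscle 1 (−0.02). Its adjusted p ran from 0.331 to 0.977. Of the tumours, 1 lay below the floor, so the level was near the limit of what the array measures.

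**Figure D4:**
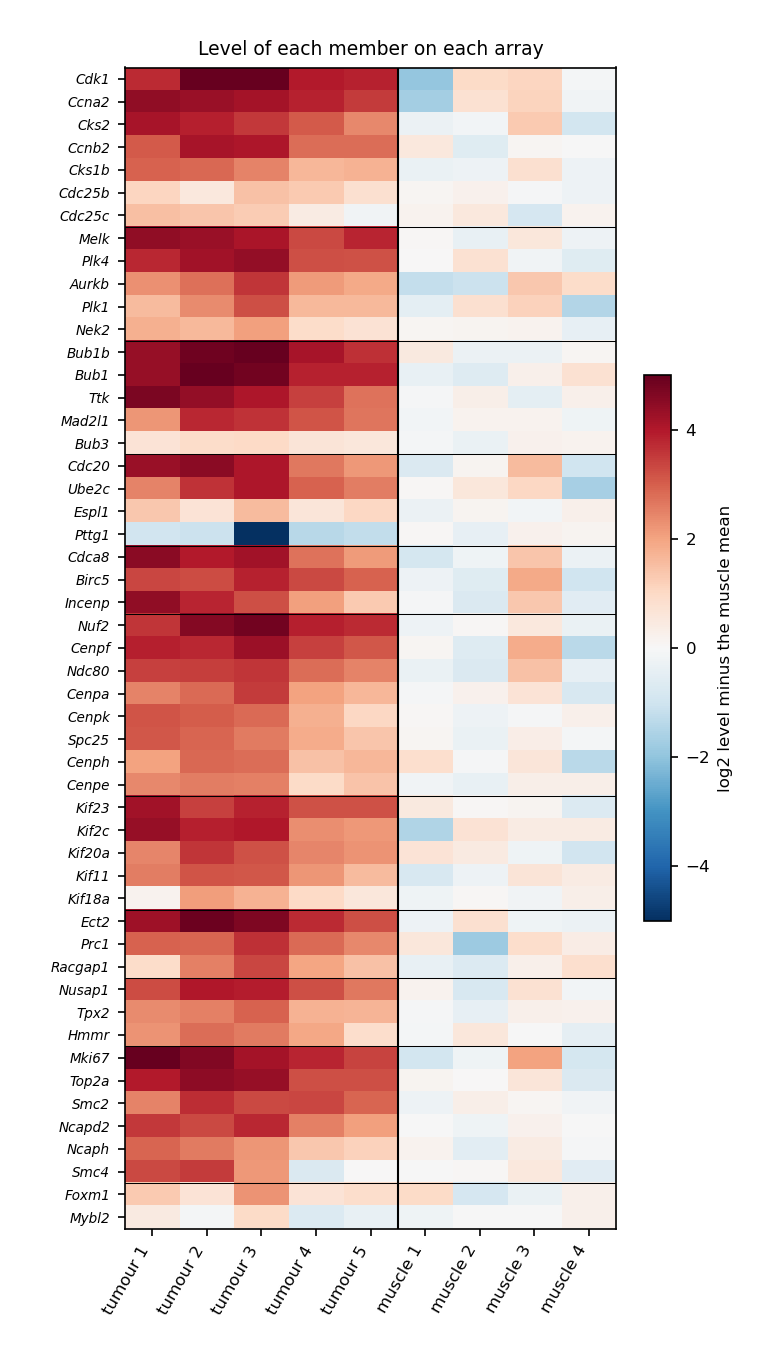
Level of each member on each array, as log2(intensity + 16) minus the mean of the 4 muscles, with tumours left of muscles and roles separated by lines in the order of the fold change plot. Tumours 4 and 5 are paler than tumours 1 to 3 for most members, and muscle 3 is the muscle most often above 0.

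The tumours differed among themselves in how far the list was raised. The mean log2 level of the 51 members above the muscle mean was 2.89, 3.13 and 3.15 in tumours 1, 2 and 3, whose mouse names begin with CC, and 2.25 and 2.01 in tumours 4 and 5, whose names begin with SSM, against −0.17, −0.10, 0.50 and −0.24 in muscles 1 to 4. All tumours thus stood above all muscles. Tumours 4 and 5 were both below tumours 1 to 3 for 38 of 51 members, where 19.8% of all genes showed that order. Neither was the highest tumour for any member, where each was so for 19.4% of all genes. The lowest was tumour 5 for 30 members (58.8%) and tumour 4 for 10 (19.6%), beside 19.9% and 16.1% of all genes. The highest was tumour 3 for 21 members (41.2%) and tumours 1 and 2 for 15 each (29.4%). Over all genes, tumours 3, 1 and 2 were highest for 24.8%, 24.2% and 12.2%. The exceptions include Cdc25b and Pttg1, for which the lowest tumours were tumour 2 and tumour 3. The order also depended on the probe set. Tumour 1 was the lowest tumour on another called probe set of each of Ccna2, Cks2, Kif11, Hmmr and Smc4. Other called probe sets of Cdca8, Cks1b and Ncaph kept tumours 4 and 5 lowest. The split of the tumours was not tested.

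Other lists moved between the same tumours. The fibroblast list stood 1.596 and 1.11 above the muscle mean on the log2 scale in tumours 4 and 5, and between −0.47 and 0.29 in tumours 1 to 3. All 7 fibroblast markers were at or above the floor on every array, with sums of 28231 to 111314 in tumours, against 49554 to 64755 in muscles. They went both ways between the groups, with 3 called higher and 2 lower, at −2.19 to 2.52 on the log2 scale. Over all genes 30.1% were called higher and 17.9% lower. The macrophage list stood 1.01 and 1.24 above the muscle mean in tumours 4 and 5, and between −0.56 and 0.46 in tumours 1 to 3. Its 5 markers were above the floor throughout, with sums of 5454 to 12078 in tumours, against 4540 to 5461 in muscles. Of these, 2 were called higher and 3 were not called, at −0.98 to 1.25. The skeletal muscle list followed another order, at −9.88 in tumour 4 and −2.28 in tumour 5, against −7.02 to −3.52 in the others. The part of these markers in the members' order was not tested. Without tumours 4 and 5, chosen after seeing the data, 40 of 42 members tested were higher, with a median of 2.998.

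Muscles differed too. Muscle 3, the forelimb sample, was the highest muscle for 30 of 51 members (58.8%), where it was so for 20.8% of all genes. On the marrow myeloid list it stood 2.88 above the muscle mean, against −1.51 to 0.02 in the other muscles and −2.77 to −1.83 in the tumours. The summed level of 6 erythroid markers was 5650 in muscle 3, against 471 to 1358 in the other muscles and 193 to 436 in the tumours. Most of the sum in muscle 3 was Slc4a1, at 4290. There 4 of the 6 were at or above the floor, as in muscle 2, and Alas2 was higher in muscle 2 (621) than in muscle 3 (443). The part of these markers in the level of mitotic genes in muscle 3 was not tested. The median within-group SD of the members was 0.66 in tumours and 0.56 in muscles on the log2 scale, or 0.38 without muscle 3, beside 0.46 and 0.31 over all genes. Leaving muscle 3 out enlarged the change of 36 of the 47 members called higher, which follows wherever it was the highest muscle. Without tumour 5 or tumour 4 the change was larger for 46 and 44 of them, and without any other array for 1 to 21. No share over all genes was taken for these counts.

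**Figure D5:**
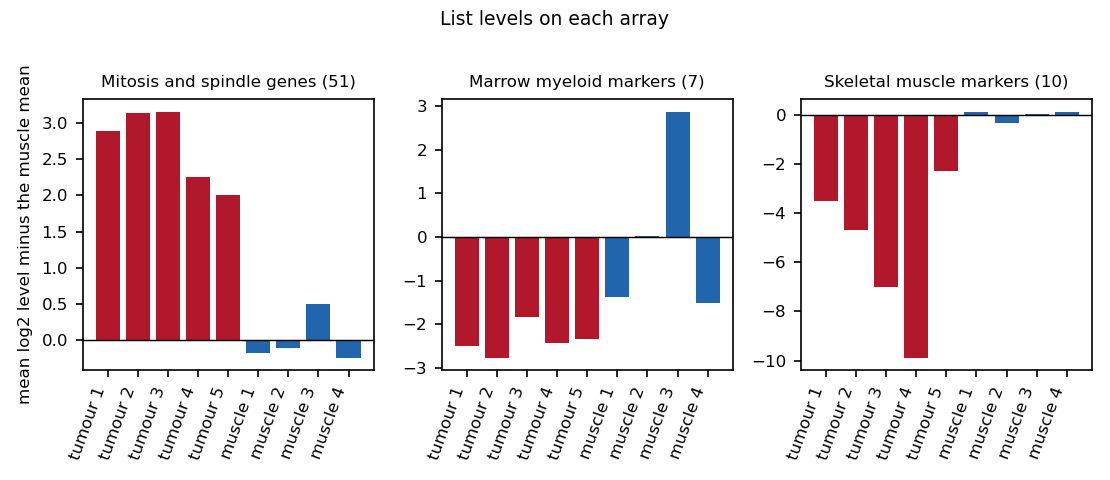
Mean log2 level minus the muscle mean on each array, tumours left of muscles, for the 51 members, 7 tested marrow myeloid markers and 10 skeletal muscle markers; the vertical scales differ between panels. All 5 tumours lie between 2.01 and 3.15 on the members, tumours 4 and 5 lowest, and muscle 3 is highest among muscles on both the members and the marrow markers.

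Most other genes of mitosis outside the list were also higher in the tumours. Of 98 such genes by name, 83 were in the table and 78 were tested. Among the 78, 51 (65.4%) rose, 4 fell and 23 were not called, where 30.1% of all genes tested were called higher and 17.9% lower. Their median on the log2 scale was 1.09. Every muscle array held 11 of them below the floor, which thus passed the filter through the tumours alone, and setting these to their bounds gave 1.03. The anaphase-promoting complex had 10 of 14 genes higher and 1 lower, cohesin and its regulators 8 of 12 higher, other condensin subunits 3 of 4, other kinetochore genes 14 of 22 with 2 lower, and other spindle and cytokinesis genes 16 of 26 with 1 lower. No difference between these groups was tested. By fitted change the first 4 were Pbk, a mitotic kinase, at 4.09 (adjusted p = 4.79e-06), Esco2, a cohesin acetyltransferase, Sgo1, the protector of centromeric cohesin, and Ncapg, of condensin I. Esco2, Sgo1 and Ncapg lay below the floor in all muscles and were at least 3.14-fold, 3.76-fold and 3.97-fold higher, so their size has no order among the genes of this list.

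The 4 that fell were Tacc2, a coiled-coil protein of centrosomes, at −2.62, Bod1, a regulator of chromosome orientation, at −1.48, Anapc13, a small subunit of the anaphase-promoting complex, at −0.86, and Mad2l1bp, which helps to silence the checkpoint, at −0.62. Tacc2 read 1760, 1012, 1329, 1462 and 2143 in tumours, against 11208, 5958, 10242 and 10626 in muscles, and it and Bod1 did not overlap between groups. Anapc13 and Mad2l1bp overlapped, and their calls were lost without single arrays. That of Anapc13 was lost without tumour 3 (−0.75), muscle 1 (−0.79) or muscle 4 (−0.77), with its adjusted p from 0.00109 to 0.0948 over all alternatives. That of Mad2l1bp was lost without tumours 2 (−0.59), 3 (−0.58), 4 (−0.60) or 5 (−0.60) or muscles 1 (−0.62), 3 (−0.51) or 4 (−0.62), with its adjusted p from 0.00312 to 0.120.

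Upstream regulators were called higher at a share near that of all genes. Of 17 tested genes of the E2F, RB, MuvB and NF-Y families and Cdkn1a, 5 (29.4%) were higher, 3 were lower and 9 were not called, with a median of 0.41. Rbl1, which encodes the pocket protein p107, rose by 2.27, the repressor E2f7 by 1.80, the kinase inhibitor Cdkn1a by 1.31 and the NF-Y subunit Nfya by 1.15 on the log2 scale (adjusted p = 0.000111, 0.000602, 0.00948 and 0.000880). The repressor E2f6 fell by 2.60 on the log2 scale (adjusted p = 3.12e-05), the MuvB subunit Lin52 by 1.23 and the E2F partner Tfdp2 by 0.60 (adjusted p = 0.0427 and 0.0395). For E2f6 the groups did not overlap, at 536, 794, 810 and 671 in tumours 1 to 4 and 1492 in tumour 5, against 4195 to 5702 in muscles. The call of Lin52 was lost without tumour 2 (−1.21), tumour 3 (−1.29), tumour 4 (−1.24), tumour 5 (−0.89), muscle 1 (−1.20), muscle 3 (−1.22) or muscle 4 (−1.12), with adjusted p from 0.00397 to 0.123 over its alternatives. That of Tfdp2 was lost without tumours 1 (−0.51), 2 (−0.50), 4 (−0.63) or 5 (−0.62) or muscles 1 (−0.61), 3 (−0.53) or 4 (−0.61), and its adjusted p ran from 0.00681 to 0.617. With all probe sets of a gene averaged, the calls of Cdkn1a (0.97) and Nfya (0.74) were lost, with adjusted p up to 0.0833 and 0.114 over their alternatives. The call of Cdkn1a was also lost with the Actb ratio as a covariate (0.98, adjusted p = 0.0798), and its level was highest, at 4946, in tumour 1, the array with the highest Actb ratio. With the dimmest probe set of each gene that of E2f6 was lost (−0.05, adjusted p = 0.941). The RB family members Rb1 and Rbl2 and the DREAM factor E2f4 were not called, at −0.09, −0.95 and −0.26 (adjusted p = 0.758, 0.0542 and 0.425).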

How the data were processed

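RNA was prepared with Trizol and an RNeasy kit, per the labels' protocols. The deposited probe set intensity values come from MAS5, as the submitters' processing notes state, and no further settings are given in the sources used here. The table held 30508 probe sets on 9 arrays, with linear intensities and no detection calls. Of these, 25581 had a single gene symbol in the platform annotation, 496 had several, 4424 had none and 7 were controls. The members and lists were chosen with earlier results of these data known.

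From the deposited intensities, arrays were scaled to a common 2% trimmed mean (factors 0.909 to 1.29), 16 was added and log2 was taken. The probe set with the highest mean represented a gene, and 10650 genes at or above the 40th percentile on at least 4 arrays were tested with limma 3.58.1 in R 4.3.3 (lmFit, eBayes with an intensity trend, all 9 arrays, no covariates). The script was tested on simulated data. Of all genes, 5112 were called and 5862 had an unadjusted p under 0.05. Probe sets whose IDs hold an s or x before the ending may match several transcripts, and the representative ones of Aurkb, Bub3, Cdc20, Cdc25c, Cdca8, Incenp, Kif2c, Ncaph, Plk4, Prc1 and Pttg1 are of this kind.

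Named genes with values on every array were, for each role, the called member with the largest change and the member with the smallest, 10 members fixed by name, every member lower or not called, and those whose probe sets disagreed in call. Up to 4 genes called in each direction are named from the other lists, and further genes named there (E2f4, Rb1, Rbl2) were chosen after their values were seen. Alternatives covered scaling, pseudocounts of 1 and 64, dim-gene filters, probe set choice, the fit, the tumours sharing a mouse name and each array left out.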

Additional observations from a re-analysis of the deposited data

Results flagged for a closer look

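Of 132 groups of arrays examined (66 named genes, tumours and muscles apart), 12 held an array that stood apart from the rest of its group by Dixon's criterion. For normally distributed values chance gives about 1 in 20. The criterion was applied to scaled intensities before the log, so that rate may not hold here. In 6 of the 12, muscle 3 was the array that stood high: Cks1b read 2704 there with the next muscle at 1289, Birc5 389 with the next at 74.9, Cdca8 352 with the next at 104, Ndc80 77.5 with the next at 11.2, Mki67 873 with the next at 172, and Esco2 49.8 with the next at 3.07. Ndc80 and Esco2 lay below the floor there as well. In other muscles, Ect2 read 112 in muscle 2 with the next at 47.7, and Nek2 was low in muscle 4, at 74.3 with the next at 112. Among tumours, Pttg1 was low in tumour 3, at 400.2 with the next at 5780, and Foxm1 was high there, at 734 with the next at 378. Mad2l1bp was high in tumour 1, at 717 with the next at 500.4, and E2f6 was high in tumour 5, at 1492 with the next at 810.4.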

How the results depend on the processing

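Of the 47 members called higher, 39 kept the call under every alternative in which they were tested. Bub3, Kif18a, Foxm1, Espl1, Spc25, Kif2c, Hmmr and Ncapd2 lost the call under at least 1. Some of the 39 failed the filter on dim genes in an alternative and had no call there, such as Bub1b, tested in 26 of 29. The count of members higher was 45 to 49 with single arrays left out, 38 of 42 tested without tumours 1 and 4, 40 of 42 without tumours 4 and 5, 44 without muscles 2 and 3 (these 3 settings chosen after seeing the data), 46 with the tumours that share a mouse name averaged, 39 of 41 with the floor at the 60th percentile and 32 of 36 with the probe set of lowest mean, where fewer members passed the filter. The 1 member lower, Pttg1, became 0 under quantile and cyclic loess normalization, ribosomal protein and proteasome centring, a pseudocount of 1, no filter on dim genes, probe sets ending in _at with no letter, the probe set with the lowest mean, no intensity trend, robust eBayes and without muscles 2 and 3, and was 0 to 1 with single arrays left out. The member median was 2.43 with a pseudocount of 64, and 2.83 to 3.18 with single arrays left out. Other mitotic genes had 28 higher with the lowest-mean probe set and 43 to 52 with single arrays left out, and had 2 lower without tumours 4 and 5 and 2 to 5 with single arrays left out, with 2 without tumour 3, muscle 1 or muscle 4. Regulators had 3 higher with probe sets averaged, 1 with the lowest-mean probe set and 4 to 6 with single arrays left out. They had 1 lower with ribosomal protein and proteasome centring, the lowest-mean probe set or without muscles 2 and 3, and 1 to 3 with single arrays left out, with 1 without tumour 2, muscle 1, muscle 3 or muscle 4. Where these counts moved, the cause was not tested.

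Direction turned for few named genes. Mybl2 was −0.072 as deposited, −0.13 centred on the median, −0.085 with quantile and −0.16 with cyclic loess normalization, −0.14 with array quality weights, −0.041 with the tumours of a shared mouse name averaged, and −0.17 to 0.24 with single arrays left out. With probe sets ending in _at, Bub3 was −0.069, Spc25 −0.076 and Kif2c −0.26, and with the lowest-mean probe set Spc25 was −0.076, Hmmr −0.29 and Tfdp2 0.82, while Tfdp2 was 0.14 with probe sets averaged. In these probe set alternatives another probe set stood for the gene. A random block for the tumours with a shared mouse name could not be fitted, since only 1 block held more than 1 array. No paired analysis was possible because the labels give the groups no shared replicate numbers. Intensities near or below the floor carry little signal over background. In muscle, 9 members lay below it on every array. Others did on some arrays, among them Cdk1 and Ccna2 on 2 of 4 and Ccnb2, Plk4 and Kif23 on 3.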
